A study of Mus musculus with 16 samples.

Results

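The genes described here are the replication-dependent histone genes of the mouse, taken as every gene whose symbol in the deposited expression table begins with Hist1h, Hist2h, Hist3h or Hist4h. The rule found 68 of the 25965 genes in the table, and it used names only, not measured values. By symbol they are 6 genes of the linker histone H1, 19 of H2A, 18 of H2B, 12 of H3 and 13 of H4, 1 of the H2A genes (Hist1h2al) being annotated as a pseudogene. Their RNA was followed in growing oocytes and in oocytes of the germinal vesicle (GV) stage, and DNA methylation over the same genes was read in 3 of the growth classes.

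All oocytes were wild-type C57BL/6 (C57BL/6Babr in the study's methods), picked by hand from digested ovaries of prepubertal females and sorted by diameter under a micrometre, so each library is a pool of oocytes and not a single cell. RNA-seq covered oocytes of 10–30 µm (postnatal days 5–7), 40–45 µm (days 7–12), 50–55 µm (days 9–14) and 60–65 µm (days 13–16) with libraries A and B for each, and GV oocytes (day 20) with 1 column. Reduced representation bisulphite sequencing (RRBS), which reads CpG-rich fragments cut by the enzyme MspI, gave libraries A and B for each class from 40–45 µm upwards. Post-bisulphite adaptor tagging (PBAT), which reads the genome without such a selection, gave 1 library at 60–65 µm, so the series holds 16 samples in all. Nothing in the labels says that A and B came from separate groups of animals. Diameter and age of the donors rise together and cannot be told apart.

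Replication-dependent histone genes supply the proteins that package newly copied DNA, and in dividing cells their mRNA is made mainly in S phase. They are short, mostly have no introns, sit in clusters, and their mRNAs end in a conserved stem-loop instead of a poly(A) tail. The stem-loop-binding protein, encoded by Slbp, binds that end and is needed for processing, translation and stability of the message. A growing oocyte is arrested in meiotic prophase and does not copy its DNA, yet it builds stores of RNA and protein for the embryo, histones included. The RNA libraries were prepared from total RNA.

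The shared end of these messages is the feature that sets the family apart, and it served to check the label on the genome sequence. The 200 bases after each annotated stop codon were searched on the gene's own strand for the histone stem-loop (GG, 3 pyrimidines and T, a loop of 4 bases, then A, 3 purines and CC). A match was found in 65 of the 67 genes with an annotated stop codon, 21 to 58 bases after it (median 30). The exceptions were Hist2h2be and Hist1h2an, while the processed pseudogene Hist1h2al has no annotated stop codon. The matches took 8 different forms, shown 5′ to 3′ in the DNA letters of GRCm38, with the 6 bases of each stem arm in capitals and the loop in lower case.
41 genes, among them Hist1h1a and Hist1h2aa: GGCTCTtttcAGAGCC
9 genes, among them Hist1h2bk and Hist1h2ba: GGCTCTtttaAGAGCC
8 genes, among them Hist1h4c and Hist1h4d: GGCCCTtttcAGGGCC
2 genes, Hist2h4 and Hist1h4i: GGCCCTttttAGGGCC
2 genes, Hist1h4j and Hist1h4b: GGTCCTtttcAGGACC
1 gene, Hist1h4a: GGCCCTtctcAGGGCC
1 gene, Hist1h3g: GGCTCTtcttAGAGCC
1 gene, Hist2h2ac: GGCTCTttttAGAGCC
The stem arm GGCTCT was present in every matched H1 (6), H2A (17), H2B (17) and H3 (12) gene. The 13 H4 genes carried GGCCCT (11) or GGTCCT (2) in its place.

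The genes lay in a few runs, joined here where neighbours were under 100 kb apart. On GRCm38 the Hist1 genes formed runs of 18 members (chr13:21715763-21837530), 5 members (chr13:22035113-22043676), 29 members (chr13:23531044-23764414) and 2 members (chr13:23933768-23934851). The 10 Hist2 genes lay in 1 run at chr3:96219865-96279001 and the 2 Hist3 genes at chr11:58948911-58956674. Hist4h4 stood alone at chr6:136801553-136804431 and the pseudogene Hist1h2al at chr13:51202688-51203065.

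H2A and H2B genes formed 12 head-to-head pairs, with their starts 167 to 305 bases apart. RefSeq promoters, 250 bases before to 50 bases after a gene's start, were at hand for 62 of the 68 genes and were searched on both strands for 3 motifs known from histone promoters. The TATA box, TATAAA, was in 35 of the 62 (56.5%) against 14.2% of all 27025 promoters in that table. The CCAAT box, CCAAT, was in 53 (85.5%, against 37.9% of all), which covers every H1, H2A, H2B and H3 promoter searched and 3 of the 12 H4 promoters. The octamer ATTTGCAT, which the POU-domain factor encoded by Pou2f1 is known to bind, was in 13 (20.97%, against 1.75% of all), 7 of them H2A and 6 H2B. Head-to-head partners share part of this window, so their matches are not separate. The promoters of Hist1h2aa and Hist1h2bk are printed because both genes rose during growth and each is the partner of another rising gene. They are on the plus strand of GRCm38.p6, with TATA boxes, CCAAT boxes and octamers of either strand in capitals.
Hist1h2aa, chr13:23934187-23934486: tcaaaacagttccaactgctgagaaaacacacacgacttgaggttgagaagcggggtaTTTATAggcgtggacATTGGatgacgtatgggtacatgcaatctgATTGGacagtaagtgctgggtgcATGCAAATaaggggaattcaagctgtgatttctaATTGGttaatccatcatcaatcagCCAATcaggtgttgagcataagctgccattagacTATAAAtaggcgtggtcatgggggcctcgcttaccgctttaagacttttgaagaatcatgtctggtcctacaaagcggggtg
Hist1h2bk, chr13:22035571-22035870: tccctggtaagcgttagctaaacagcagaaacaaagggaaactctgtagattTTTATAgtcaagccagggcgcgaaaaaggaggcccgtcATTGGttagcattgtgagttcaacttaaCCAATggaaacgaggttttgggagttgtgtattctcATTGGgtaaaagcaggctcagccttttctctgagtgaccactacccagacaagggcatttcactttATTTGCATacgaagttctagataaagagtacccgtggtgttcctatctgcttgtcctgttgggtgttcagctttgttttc
Matched letters are a description of these windows and not evidence that a factor bound there.

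Histone genes resemble each other, so a read can have several possible origins. The aligner was set to report 1 position per read, which may place a read from 1 copy on another. Of the 68 genes, 37 had at least 50% of their 50-base stretches found nowhere else in the genome and 31 had less. No such stretch was found in 5 genes, Hist2h2aa1, Hist1h2bq, Hist1h2br, Hist1h2ao and Hist1h2ap, and values for these and for Hist2h2aa2 (1.84% unique) are uncertain gene by gene. Library depth implied by the steps between values was between 99400000 and 198300000 reads. Within the 10–30 µm class library A was above library B in 60 of the 68 genes (median log2 A/B 0.32, against −0.06 over all tested genes), whereas A was higher in 38, 30 and 27 genes in the 3 larger classes. Counts of called genes that involve the 10–30 µm class are therefore also given without each of its libraries. In pooled oocytes, RNA from fewer cells of a kind and less RNA per cell cannot be told apart, and an RPKM (reads per kilobase of exon, scaled to library size) is a share of a library, not an amount per oocyte.

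RNA of the family was abundant and unevenly spread over its genes. Over the 8 libraries of growing oocytes 2 genes averaged at least 100 RPKM, 27 averaged 10 to 100, 22 averaged 1 to 10 and 17 were under 1. Of these, 9 stayed under 0.5 RPKM in all 9 columns, and none was at 0 in all of them. The testis linker histone gene Hist1h1t, the lowest, ranged from 0 to 0.055 RPKM. The 5 highest genes held 39.7% to 46.6% of the summed RPKM of the family in each column, and Hist1h1a alone held 11.5% to 19.0%.

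Hist1h1a, a linker histone gene at chr13:23763668-23764414, was the highest of the family and ranked 38 of the 25965 genes by mean RPKM in growing oocytes. It read 201 and 148 RPKM at 10–30 µm, 252 and 192 at 40–45 µm, 175 and 177 at 50–55 µm, 157 and 173 at 60–65 µm, and 120 in GV oocytes. The first and last growing classes overlapped, and no change was called between them (log2 change −0.05, SE 0.20, limma adjusted p = 0.85). Hist2h2aa2, an H2A gene, followed with 173, 122, 122, 96.6, 80.7, 80.5, 106 and 86.7 RPKM in the same order of libraries and 92.0 in GV oocytes. Because its reads can belong to its near copy Hist2h2aa1, their sum is more certain than either, and it read 200 and 147 at 10–30 µm, 123 and 105 at 60–65 µm and 113 in GV oocytes. Both copies were lower in each 60–65 µm library than in each 10–30 µm library.

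Hist1h2aa and Hist1h2ba encode TH2A and TH2B, H2A and H2B forms first known from the testis and also found in oocytes. Hist1h2aa read 75.8 and 48.8 RPKM at 10–30 µm, 99.0 and 77.2 at 40–45 µm, 96.2 and 103 at 50–55 µm, 125 and 134 at 60–65 µm, and 108 in GV oocytes. Hist1h2ba read 35.9 and 23.3, then 60.0 and 44.4, then 49.7 and 49.6, then 53.5 and 58.5, and 40.9 in GV oocytes. For both genes every library of 60–65 µm was above both of 10–30 µm, and Hist1h2aa was the third highest gene of the family. Hist1h2bn (61.1 to 79.2 RPKM at 10–30 µm, 84.6 to 92.6 at 60–65 µm) and Hist1h2bl (63.6 to 79.6, then 77.6 to 84.4) were the most abundant H2B genes. Hist1h4k and Hist1h4c led H4, and Hist1h3h and Hist1h3i led H3. Hist1h4k read 109 and 73.5 RPKM at 10–30 µm and 60.6 and 52.8 at 60–65 µm, while Hist1h4c read 86.9 and 60.7, then 48.8 and 57.3. Hist1h3h read 66.9 and 54.0, then 45.8 and 44.5, and Hist1h3i read 42.5 and 35.5, then 28.9 and 28.3. In these 4 genes both 60–65 µm libraries lay below both 10–30 µm libraries.

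**Figure D1:**
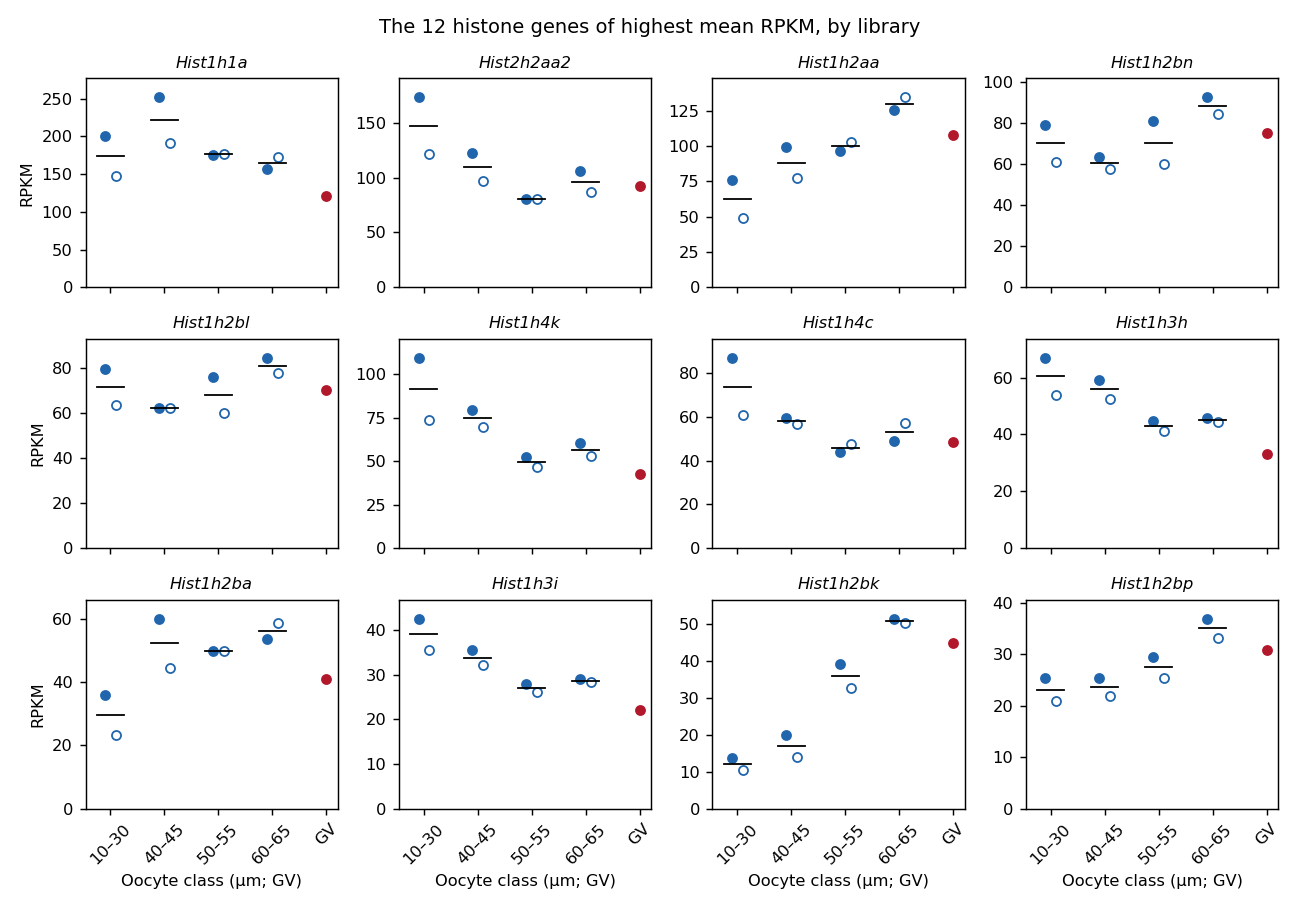
RPKM (linear axis from 0) of the 12 histone genes of highest mean level in each oocyte class; filled blue points are library A, open points library B, bars their mean and red points the single GV column. Hist1h2aa, Hist1h2bn, Hist1h2ba, Hist1h2bk and Hist1h2bp are higher in both 60–65 µm libraries than in both 10–30 µm libraries (Hist1h2bn did not pass the test, adjusted p = 0.112 by limma), whereas both Hist1h3 and both Hist1h4 genes are lower.

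Summed by protein, the 5 kinds of histone did not move alike. The 13 H4 genes summed to 370 and 255.6 RPKM at 10–30 µm, 250 and 230 at 40–45 µm, 179 and 177 at 50–55 µm, 206 and 204 at 60–65 µm, and 166 in GV oocytes. The 12 H3 genes went from 202 and 166 to 137 and 134, with 110 in GV oocytes. For H3 and H4 the 60–65 µm libraries were below both 10–30 µm libraries. The 18 H2B genes read 361 and 286 RPKM at 10–30 µm and 409 and 401 at 60–65 µm, so that the later pair was higher, with 342 in GV oocytes. The 19 H2A genes read 403 and 298, then 328 and 325, and the classes overlapped. The 6 H1 genes read 224 and 172, then 165 and 183, also overlapping, with 127 in GV oocytes. These sums are of deposited RPKM and were not tested. The whole family summed to 1560 and 1178 RPKM at 10–30 µm, 1245 and 1247 at 60–65 µm and 1046 in GV oocytes.

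**Figure D2:**
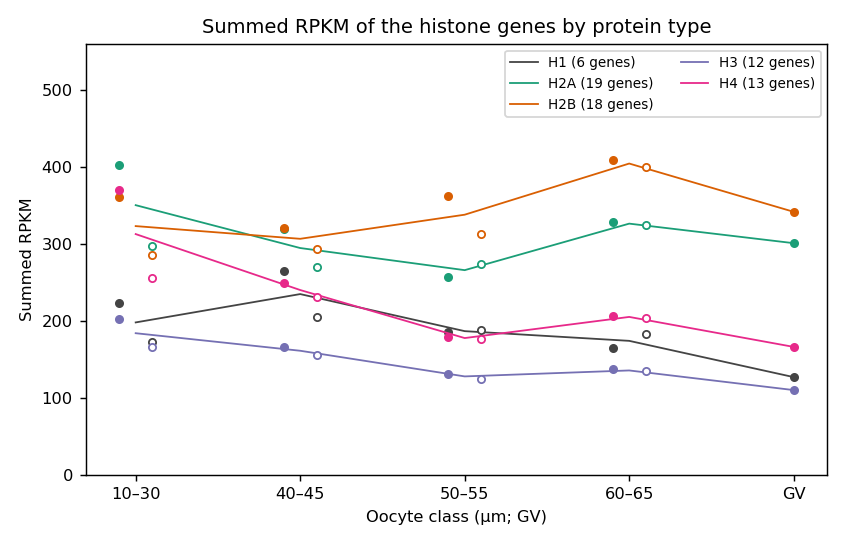
Summed RPKM (linear axis from 0) of the histone genes by protein type in each oocyte class; filled points are library A and the GV column, open points library B, and lines join class means. The H2B sum is higher at 60–65 µm (409 and 401) than at 10–30 µm (361 and 286), while the H3 and H4 sums are lower.

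The next question was which single genes changed as oocytes grew. Between the smallest and the largest growing class, 10–30 to 60–65 µm, 5 of the 58 histone genes abundant enough to be tested rose and 30 fell. Over all 10518 genes tested, 32.4% rose and 30.9% fell at the same threshold (limma on log2(RPKM + 0.1) after scaling, Benjamini-Hochberg adjusted p under 0.05), against 8.62% and 51.7% of the histone genes. The median log2 change of the histone genes was −0.41, against 0.02 over all genes. The values of 36 tested members were lower in both 60–65 µm libraries than in both 10–30 µm libraries (41.9% of all genes), 7 were higher (40.2%) and 15 overlapped. Without 10–30 µm library A the counts were 7 rising and 22 falling (28.8% and 25.4% of all genes), and without library B they were 5 and 38 (33.9% and 29.2%). The remaining 10 members were too low to be tested. The filter took in genes through whichever class was highest, so the 58 are not a sample of all 68. Hist1h3b, counted among the falls, reached 0.5 RPKM in its 10–30 µm libraries only and passed through them, so its fall is given as a value and not as evidence of a change.

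All 5 genes called as rising were H2A or H2B genes. Hist1h2bk, an H2B gene at chr13:22035821-22036299, read 13.6 and 10.5 RPKM at 10–30 µm, 20.01 and 14.03 at 40–45 µm, 39.1 and 32.6 at 50–55 µm, 51.3 and 50.3 at 60–65 µm, and 44.8 in GV oocytes. Each class lay above the class before it, though 10–30 and 40–45 µm came close, at 13.6 and 14.03 RPKM. Its log2 change from 10–30 to 60–65 µm was 2.09 (SE 0.21, limma adjusted p = 6.4e-05). Its head-to-head partner Hist1h2ah, an H2A gene, read 1.55 and 1.54 RPKM at 10–30 µm, 1.96 and 1.53 at 40–45 µm, 3.28 and 3.73 at 50–55 µm, 4.08 and 5.82 at 60–65 µm, and 4.70 in GV oocytes. The later classes were above both earlier ones, with a log2 change of 1.61 (SE 0.19, limma adjusted p = 0.00016). Of these sequences, 26.3% of the 50-base stretches of Hist1h2bk and 32.99% of those of Hist1h2ah were unique. Hist1h2aa rose by 1.11 on the log2 scale (SE 0.22) and Hist1h2ba by 0.97 (SE 0.23), with limma adjusted p = 0.0028 and 0.0062. Hist1h2bp, an H2B gene, rose by 0.62 (SE 0.15, limma adjusted p = 0.00665), from 25.3 and 20.9 to 36.9 and 33.2 RPKM. Without 60–65 µm library A its call was lost (0.55, limma adjusted p = 0.0548).

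The falling genes included every kind of histone. Of the tested genes, 3 of 4 H1, 7 of 15 H2A, 4 of 14 H2B, 9 of 12 H3 and 7 of 13 H4 genes fell. No H1, H3 or H4 gene rose, against 32.4% of all genes rising and 30.9% falling. Hist1h3b, whose fall is not evidence of a change, is 1 of the 9 H3 genes. Without 10–30 µm library A 3, 4, 3, 6 and 6 genes of the same kinds fell and 1 H4 gene, Hist1h4i, rose, and without library B 3, 10, 5, 10 and 10 fell. Hist2h2bb, an H2B gene on chromosome 3, read 21.1 and 14.3 RPKM at 10–30 µm, 8.38 and 8.28 at 40–45 µm, 4.81 and 4.40 at 50–55 µm, 3.19 and 3.48 at 60–65 µm, and 2.64 in GV oocytes. Each class lay below the class before it, and the log2 change was −2.32 (SE 0.18, limma adjusted p = 2.3e-05). Hist1h4d, an H4 gene, read 19.5 and 14.04, then 6.52 and 8.58, then 4.41 and 5.17, then 3.87 and 4.78 RPKM, and 2.84 in GV oocytes. Its 50–55 and 60–65 µm classes overlapped and the others did not, and its log2 change was −1.90 (SE 0.20, limma adjusted p = 9.5e-05).

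Among the linker histones, Hist1h1c read 14.6 and 16.8 RPKM at 10–30 µm, 7.86 and 8.17 at 40–45 µm, 6.11 and 6.45 at 50–55 µm, 4.45 and 5.81 at 60–65 µm, and 3.09 in GV oocytes. No classes overlapped, and the log2 change was −1.59 (SE 0.13, limma adjusted p = 2.9e-05). Hist1h1d fell by 1.25 and Hist1h1e fell by 0.69 on the same scale, so that the 3 other tested H1 genes moved away from Hist1h1a. Further H4 genes among the largest changes were Hist1h4f (−1.75) and Hist1h4b (−1.27), and the H3 gene Hist1h3c (−1.09) and the H2A gene Hist3h2a (−1.01) completed the 8 falling most. Hist1h4k, Hist1h3h and Hist1h3i, named above for their abundance, fell by 0.65, 0.39 and 0.42. None of these 3 calls held without 10–30 µm library A (limma adjusted p = 0.0954, 0.203 and 0.0984) or without either 60–65 µm library (0.0553 to 0.137). Hist1h4c had a log2 change of −0.44 and was not called (limma adjusted p = 0.066), and neither was Hist1h2bn (0.37) or Hist1h2bl (0.21).

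**Figure D3:**
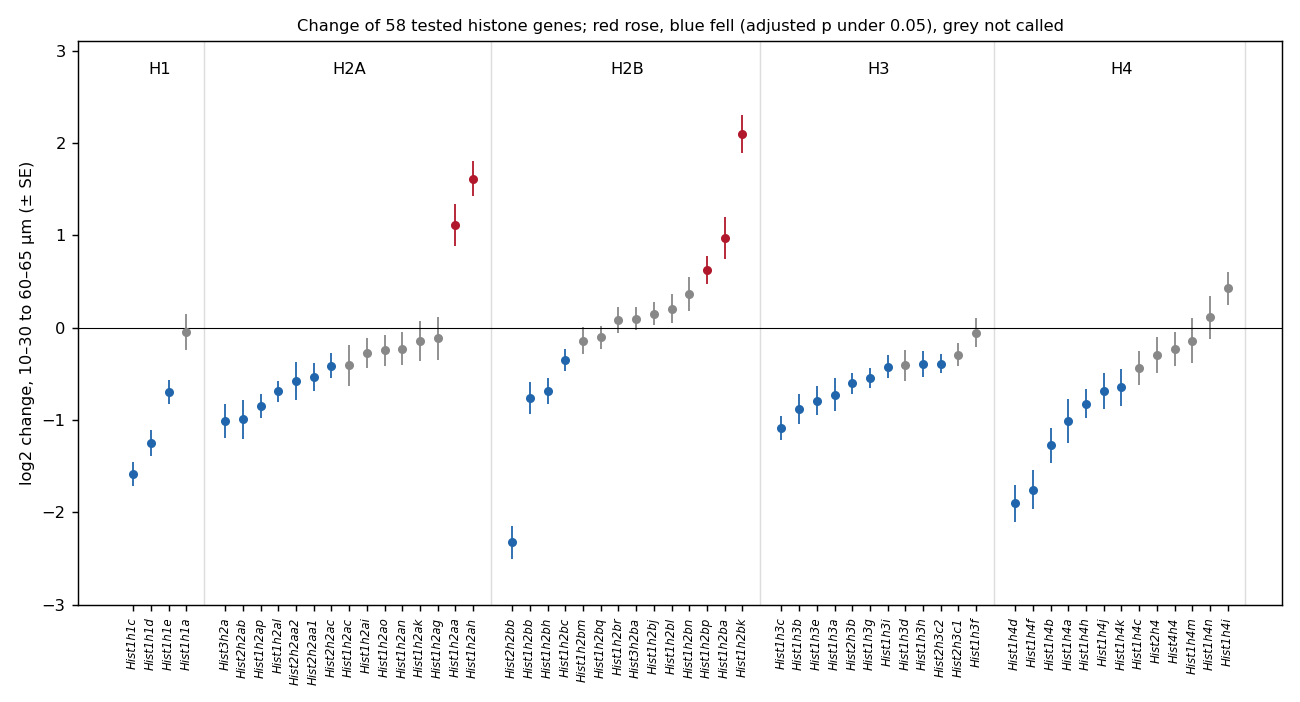
Log2 change with its standard error from 10–30 to 60–65 µm for the 58 tested histone genes, ordered within H1, H2A, H2B, H3 and H4; red genes rose, blue genes fell and grey genes were not called. All 5 rising genes are H2A or H2B genes, led by Hist1h2bk at 2.09, and the lowest gene is Hist2h2bb at −2.32.

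Markers of other cells were low but moved with class. The 8 theca and stroma markers summed to 3.95 and 2.83 RPKM at 10–30 µm and 1.122 and 1.03 at 60–65 µm. Of them Col1a1, Col1a2 and Col3a1 passed the filter, but through the 10–30 µm libraries in which they were highest, so their calls are not counted. Col1a1 read 1.63 and 1.16 RPKM at 10–30 µm and 0.400 and 0.241 at 60–65 µm, Dcn and Lum never exceeded 0.18 RPKM, and Cyp17a1 was at 0 in both 10–30 µm libraries. The 14 granulosa markers summed to 12.7 and 14.4 at 10–30 µm and 21.9 and 19.9 at 60–65 µm, mostly from Serpine2. Of the 14, 4 passed the filter, Inha and Cyp19a1 only through the later classes in which they were high, so their calls are not counted. The other two, Serpine2 and Nr5a2, rose from 10–30 to 60–65 µm (beside 32.4% of all genes), Serpine2 not being called without 10–30 µm library A, while the defining marker Foxl2 stayed at or below 0.064 RPKM. Among 7 blood and vessel markers Pecam1 was tested and rose, also with either 10–30 µm library left out, and the sum went from 0.81 and 0.80 to 5.09 and 4.64. The 12 oocyte markers summed to 2614 to 3643 RPKM in all columns, so the labelled cell type was present throughout. What part other cells had in the histone changes was not tested.

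Where the genes lay and what they did can be read run by run, beside the 32.4% of all genes that rose and the 30.9% that fell. In the run of 29 at chr13:23531044-23764414, 16 of 21 tested genes fell and 0 rose. Hist1h3b, which passed the filter through the 10–30 µm class alone, is 1 of the 16. In the Hist2 run on chromosome 3, 7 of 9 fell and 0 rose. By contrast the run of 5 at chr13:22035113-22043676 had 2 rising and 0 falling, and both genes of the run at chr13:23933768-23934851 rose. The run of 18 at chr13:21715763-21837530 was mixed, with 1 rising and 5 falling of 17 tested. In the run of 29, 14 of 20 fell without 10–30 µm library A and 18 of 20 without library B, and in the Hist2 run 5 and 8 of 9. The run of 18 had 2 rising and 1 falling without A and 1 and 9 without B, the run of 5 had 3 and 2 rising, and the run of 2 kept both rises. Members of a run can share sequence and regulatory DNA and are not independent.

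From 10–30 to 40–45 µm more falls were called than in the next step. Of the 58 histone genes 1 rose and 11 fell, against 16.1% rising and 7.84% falling over all genes. The median log2 change was −0.27, against 0.05. At an unadjusted limma p under 0.05, 4 histone genes were higher and 22 lower (3924 of all genes in either direction). From 40–45 to 50–55 µm these counts were 3 and 22 (3066 of all genes). The gene called as rising from 10–30 to 40–45 µm was Hist1h2ba (0.96, SE 0.23, limma adjusted p = 0.020). Hist1h2ap changed most of the 58 (−1.30, SE 0.13, limma adjusted p = 0.00082), from 1.202 and 1.04 RPKM to 0.346 and 0.373, although none of its 50-base stretches is unique. Summed with its near copy Hist1h2ao, the values were 2.06 and 1.78 RPKM at 10–30 µm and 0.901 and 0.766 at 40–45 µm, also without overlap. Among the falls called it was followed by Hist1h4d (−1.01), Hist2h2bb (−0.93), Hist1h1c (−0.84), Hist3h2a (−0.79), Hist1h1d (−0.66), Hist1h3b (−0.64) and Hist1h3e (−0.60). Hist1h3b, which passed the filter through the 10–30 µm class alone, was a weakly represented gene, at 0.617 and 0.588 RPKM at 10–30 µm and 0.376 and 0.270 at 40–45 µm. Without scale factors 1 histone gene rose and 25 fell, while the split over all genes turned from 1694 rising and 825 falling to 1088 and 1521 and their median log2 change from 0.05 to −0.07. With no filter on low genes 0 rose and 7 fell, with 1500 and 1159 of all genes. Leaving out a library of either class moved the number of calls over all genes in the same direction as in the family. Counts also moved with single libraries, to 4 rising and 5 falling without 10–30 µm library A, 2 and 27 without 10–30 µm library B, 0 and 5 without 40–45 µm library A and 2 and 5 without 40–45 µm library B.

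Few histone genes passed the test between 40–45 and 50–55 µm, and their number depended on the fit. Of the 58, 2 rose (all genes 5.18%) and 4 fell (all genes 4.01%), with a median log2 change of −0.24, against −0.01 over all genes. The rising genes were the partners Hist1h2bk (1.04, SE 0.21, limma adjusted p = 0.023) and Hist1h2ah (0.93, SE 0.19, limma adjusted p = 0.024). Hist1h4b fell by 0.98, Hist2h2bb by 0.89, the pseudogene Hist1h2al by 0.49 and Hist1h3g by 0.46 on the log2 scale. None of the 6 calls remained when 40–45 µm library B or 50–55 µm library A was left out, and then 0 of all genes were called as well. Without 50–55 µm library B, 60–65 µm library A, 60–65 µm library B and 40–45 µm library A 1, 2, 2 and 3 histone genes were called, and 201, 363, 364 and 542 of all genes in place of 967. Without either 10–30 µm library, 18 (without A) or 17 (without B) were called, with 1636 and 1630 of all genes, and with no filter on low genes 0, with 549 of all genes.

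Between 50–55 and 60–65 µm limma called 0 histone genes, and 0.0% of all genes in either direction. At an unadjusted p under 0.05 there were 0 histone genes higher and 3 lower, and 1485 of all 10518 genes, while edgeR on whole reads recovered from the table also called 0 histone genes. The median log2 change of the histone genes was 0.11, against −0.02 over all genes.

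Across the longer step from 40–45 to 60–65 µm, which spans the classes read for methylation, 5 histone genes rose and 12 fell. Over all genes 16.6% rose and 21.5% fell, against 8.62% and 20.7% of the histone genes. Hist1h2bk (1.49), Hist1h2ah (1.34), Hist1h4n (0.86), Hist1h2bp (0.47) and Hist1h2ap (0.46) rose. Hist1h4n is a near copy of Hist1h4m, and their sum read 16.8 and 15.1 RPKM at 40–45 µm and 26.3 and 22.4 at 60–65 µm. Hist2h2bb (−1.40), Hist1h4a (−1.26), Hist1h4b (−1.23), Hist1h4f (−1.09), Hist1h3a (−0.96), Hist1h4d (−0.89), Hist1h1c (−0.75) and Hist2h4 (−0.65) fell most. Hist1h4a read 14.34 and 15.001 RPKM at 40–45 µm and 5.65 and 7.49 at 60–65 µm, and Hist1h3a read 10.5 and 9.20, then 4.61 and 6.28. Among the 31 tested genes that were at least 50% unique, 1 rose (3.23%) and 10 fell (32.3%), and among the other 27, whose reads are largely shared, 4 rose (14.8%) and 2 fell (7.41%). Without scale factors the whole family had 8 rising and 10 falling, and all genes 2294 and 1612 in place of 1748 and 2260. Leaving out a library of 10–30 or 60–65 µm moved the number of calls over all genes in the same direction as in the family. The family had 2 rising and 5 falling without 60–65 µm library A, 2 and 9 without its library B, and 9 and 20 or 8 and 21 without 10–30 µm library A or B.

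Partners of the head-to-head pairs stood at different levels. The H2B gene was above its H2A partner in all 9 columns in 9 of the 12 pairs and in 7 of 9 columns in the pair Hist1h2ap and Hist1h2br. The widest gap in that direction was between Hist1h2ak and Hist1h2bn, with means of 1.63 and 72.4 RPKM over the growing libraries from starts 215 bases apart. Only 13.6% of the 50-base stretches of Hist1h2bn are unique, so reads of other H2B genes may stand in its value. The H2A gene was higher in all 9 columns in 2 pairs, Hist1h2aa over Hist1h2ba (94.96 and 46.9 RPKM) and Hist2h2ac over Hist2h2be (11.9 and 0.022). Both partners rose from 10–30 to 60–65 µm in 2 pairs, Hist1h2ah with Hist1h2bk and Hist1h2aa with Hist1h2ba. All 4 of these genes carried the octamer in their RefSeq promoter. Of the 10 tested genes with an octamer 4 rose, 4 fell and 2 were not called. Of the 43 tested without it 1 rose and 23 fell, beside 32.4% of all genes rising and 30.9% falling. Hist1h3b, which passed the filter through the 10–30 µm class alone, is 1 of the 23. Without 10–30 µm library A the counts were 4 and 3 with an octamer and 3 and 16 of 42 without one, and without library B 4 and 6, and 1 and 29 of 42. The 4 rising genes are 2 pairs that share a promoter region, and this split was not tested.

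**Figure D4:**
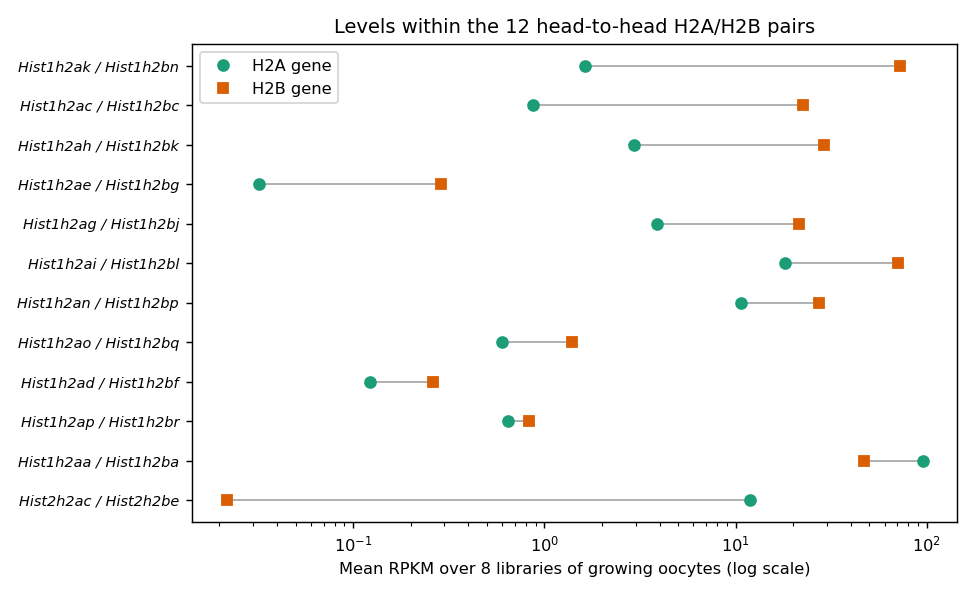
Mean RPKM (log axis) over the 8 libraries of growing oocytes for the H2A gene (green circle) and the H2B gene (orange square) of each of the 12 head-to-head pairs, joined by a line. The H2B gene is to the right in 10 pairs, and the H2A gene in the pairs Hist1h2aa and Hist1h2ba and Hist2h2ac and Hist2h2be.

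GV oocytes, fully grown oocytes still in prophase arrest, were represented by 1 column, so values stand beside the 60–65 µm mean with no test. Among the 50 histone genes of at least 1 RPKM in either, the median ratio of GV to 60–65 µm was 0.843, against 0.988 over all 8780 such genes. None was at least 2 times higher (0.535% of all genes) and 1 was at most 0.5 times (0.342%). That gene was Hist1h4b, at 1.86 and 2.32 RPKM at 60–65 µm and 1.03 in GV oocytes, a ratio of 0.492. The next smallest ratios were Hist2h2ab (0.533), Hist1h3a (0.534), Hist1h1c (0.602) and Hist1h3c (0.608), all genes that had already fallen during growth. The largest were Hist1h2al (1.18), Hist2h2aa1 (1.15), Hist2h3c2 (1.13), Hist2h3c1 (1.12) and Hist2h2ac (1.07).

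Genes that make, process and remove histone mRNA were read from a list of 25, all of which were tested. From 10–30 to 60–65 µm 8 rose (32.0%) and 7 fell (28.0%), close to the 32.4% and 30.9% of all genes, with a median log2 change of −0.10. Without 10–30 µm library A 6 rose and 5 fell, and without library B 6 and 7. Slbp read 48.0 and 41.6 RPKM at 10–30 µm, 64.2 and 53.2 at 40–45 µm, 68.9 and 59.3 at 50–55 µm, 59.5 and 64.2 at 60–65 µm, and 57.4 in GV oocytes. Both 10–30 µm libraries were below all others, and the log2 change to 60–65 µm was 0.49 (SE 0.15, limma adjusted p = 0.020). Lsm10 (0.43) and Lsm11 (0.61), parts of the U7 particle that cuts histone pre-mRNA, and Casp8ap2 (0.70), which helps recruit it, rose as well. Ccne1 (0.32) and Ccne2 (0.70), E-type cyclins, Pou2f1 (0.50) and the RNA helicase gene Upf1 (0.83), which takes part in histone mRNA decay, completed the rising group.

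Npat, the coactivator of histone transcription that cyclin E and its kinase act on, ranged from 1.29 to 1.75 RPKM over the 9 columns and was not called (−0.10, SE 0.10, limma adjusted p = 0.38). Of the genes that fell, Snrpb (−0.88), Snrpg (−0.86), Snrpe (−0.75) and Snrpf (−0.27) encode Sm proteins, shared by the U7 and splicing particles. The others were Lsm1 (−0.56), of a complex in mRNA decay, Cstf2 (−0.41), of the cleavage machinery, and Mif4gd (−0.31), an Slbp-binding translation factor. From 40–45 to 60–65 µm 1 of the 25 rose and 6 fell, beside 16.6% and 21.5% of all genes. Lsm11 rose (0.34), and Snrpb (−0.57), Zfp473 (−0.55), Lsm1 (−0.45), Mif4gd (−0.38), Srrt (−0.36) and Cstf2 (−0.31) fell.

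Replication-independent histone genes, whose mRNAs are polyadenylated, had 12 of 13 listed genes in the table and 11 tested. From 10–30 to 60–65 µm 4 rose (36.4%) and 3 fell (27.3%), near the shares of all genes (32.4% and 30.9%), with 3 and 2 without 10–30 µm library A and 4 and 4 without library B. H1foo, the oocyte linker histone, was above every replication-dependent gene, at 311 and 270 RPKM at 10–30 µm, 444 and 449 at 60–65 µm and 412 in GV oocytes (log2 change 0.64, SE 0.13, limma adjusted p = 0.0025). H1f0 (0.56), the centromeric H3 gene Cenpa (0.52) and H2afv (0.27) rose, and the macroH2A gene H2afy (−1.63), H2afz (−0.54) and H3f3a (−0.35) fell.

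Among 20 genes of DNA replication, 5 rose (Cdc6, Mcm4, Rrm2, Mki67 and Mcm2) and 5 fell (Prim1, Ccna2, Gins2, Rrm1 and Mcm7) from 10–30 to 60–65 µm, and their sum was 166 to 180 RPKM in every column. Both counts stand beside 32.4% of all genes rising and 30.9% falling, above the share in this list, and they were 3 and 2 without 10–30 µm library A and 5 and 6 without library B. From 40–45 to 60–65 µm 1 of the 20 rose (Cdc6) and 2 fell (Prim1 and Gins2), beside 16.6% and 21.5% of all genes.

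DNA methylation was read within 500 bases either side of each gene's start, in the bodies of the genes and between them, at cytosines with at least 5 reads. Levels are percent methylation at each position, averaged over positions. In RRBS the start windows of the histone genes held 0.51% ± 0.33 at 40–45 µm, 1.06% ± 0.75 at 50–55 µm and 1.04% ± 0.17 at 60–65 µm (SD, n = 2). They had 126 to 215 positions per library. Member genes from end to end held 1.11% ± 0.0037, 1.67% ± 1.07 and 1.32% ± 0.038. These levels depended on the read minimum, and with at least 1 read the starts held 2.20% at 50–55 µm and the genes 5.24% at 50–55 µm and 2.15% at 60–65 µm. Between the genes RRBS covered 4 to 9 positions per library, too few to follow. Windows of 11 histone genes had at least 5 positions in every RRBS library and were tested with edgeR on the calls from 40–45 to 60–65 µm. None was called, against 0.473% of 11002 windows of all genes higher and 0.0% lower. At an unadjusted p under 0.05 there were 0 histone windows and 377 of the 11002, and without 40–45 µm library A 2 histone windows and 936 of all. Those 11 do not stand for all 68, since RRBS covers CpG-rich fragments only. Among them the head-to-head partners Hist1h2ae and Hist1h2bg had identical values in every RRBS library, so their windows are not separate.

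The shared start region of Hist1h2aa and Hist1h2ba read 3.46%, 0.0%, 1.22%, 13.6%, 4.24% and 1.96% at the Hist1h2aa start in the 6 libraries in order of size, A before B, from 9 to 12 positions. The Hist1h2ba start read 4.61%, 0.0%, 0.66%, 15.5%, 5.01% and 2.93%. The high value was library B of 50–55 µm alone, and libraries of 40–45 and 60–65 µm overlapped.

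In PBAT of 60–65 µm oocytes the start windows of the histone genes averaged 10.7% over 2481 positions, member genes 10.7% and the sequence between them 14.5% over 501 positions. This library has no replicate. Of the 61 histone genes with at least 5 positions, 24 (39.3%) were at 10% or more, against 11.8% of all 17624 genes with a window. The median of the 61 was 7.99%, against 3.46% over all genes. Windows of head-to-head partners overlap and hold many of the same cytosines, so the 61 are not separate. The highest was 21.4%, at Hist2h2aa2, followed by Hist1h3c (21.1%), Hist1h3b (19.8%), Hist2h2aa1 (18.6%) and Hist2h3c1 (18.4%), so no start window reached 30%. Of the genes that rose, Hist1h2bk and Hist1h2ah read 0.0% in their shared window (23 positions), Hist1h2aa 1.43% and Hist1h2ba 2.84%. These windows had 5.57 to 7.04 reads per position, against 9.16 to 14.5 in the 5 highest windows, and the part of depth was not tested. Hist1h1a, Hist2h2aa2 and Hist1h2aa, the highest genes by mean RPKM, read 0.625%, 21.4% and 1.43%. Hist1h2bp, which also rose, read 10.8%. Low values were found at falling genes too, with 2.37% at Hist1h1c and 3.88% at Hist2h2bb.

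The share of positions without any methylated call set histone windows apart from other windows in PBAT, whereas the share of highly methylated positions was close. Of the positions in histone start windows 49.7% had no methylated call and 1.49% were at least 50% methylated, against 77.4% and 1.51% in the windows of other genes. Mean reads per position also differed, at 9.95 in histone windows and 8.40 in the others. The share without a methylated call depends on depth, and the part of depth in this difference was not tested. Genes at least 50% unique had a median of 6.90% (35 genes) and the others 8.83% (26 genes). At the 119 positions that PBAT and library A of RRBS at 60–65 µm both covered, PBAT read 4.04% and RRBS 0.80% in histone windows, and 3.92% and 1.15% in the windows of other genes. At the 89 positions shared with library B the values were 4.24% and 0.77%, and 3.99% and 1.37%. At positions that both methods covered, histone windows and other windows thus lay close together in PBAT, and the contrast of 10.7% against 4.65% over all PBAT positions was not seen there. These values are from 1 PBAT library and were not tested.

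Around all gene starts PBAT methylation dipped to 4.54% in the first 500 bases and was 24.6% in the last 500 bases before 5000 downstream and 20.3% in the 500 bases nearest to 5000 upstream. Around histone gene starts the level was 10.9% in the first 500 bases and between 3.59% and 16.02% over the same distances, without a comparable minimum at the start. Histone genes are shorter than these windows and lie close together, so the flanks of a gene are often the body of another.

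**Figure D5:**
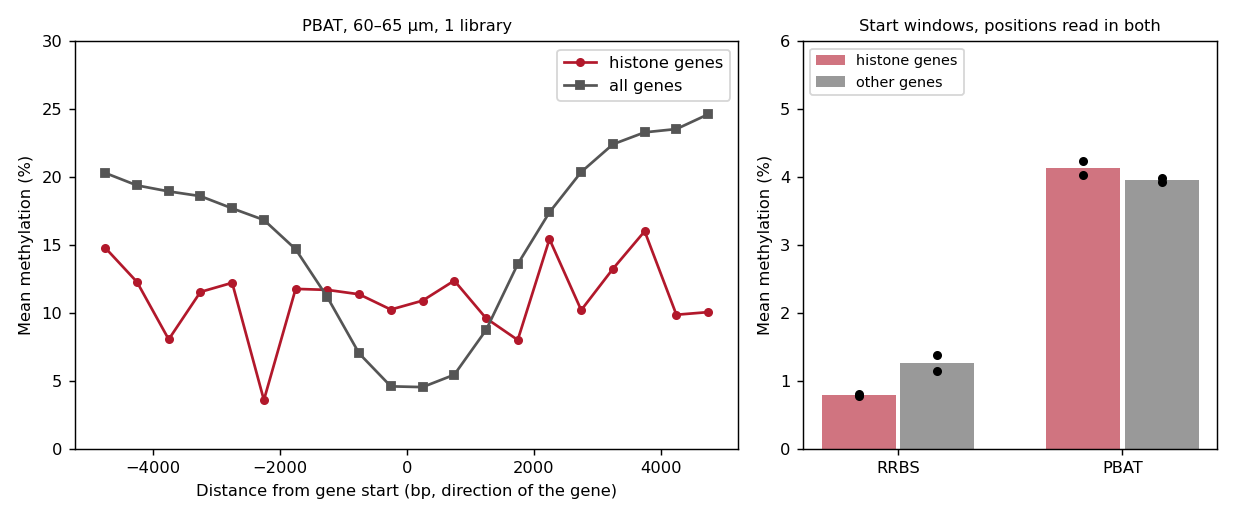
Left, mean PBAT methylation (60–65 µm, 1 library) in steps of 500 bases from the gene start for histone genes (red) and all genes (grey). Values are percent methylation at each position, averaged over positions. Right, mean methylation in start windows at positions covered by both methods at 60–65 µm; bars are means, and points the values against RRBS libraries A and B, at 0.80% and 0.77% for RRBS and 4.04% and 4.24% for PBAT in histone windows.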

How the data were processed

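Strand-specific RNA-seq, RRBS and PBAT libraries of pooled mouse oocytes were analysed as 16 samples grouped by the submitters' titles. Per the study's methods, RNA reads were trimmed with Trim Galore 0.2.8 and aligned to GRCm38 with TopHat2 2.0.9, and bisulphite reads were trimmed with Trim Galore 0.3.5 and aligned with Bismark 0.14.0 (RRBS) or 0.10.0 (PBAT). The deposited expression table holds RPKM made by the authors from these alignments; the study's methods name Cufflinks and SeqMonk, but not which of them made this table. The deposited methylation files give percent methylation and counts of methylated and unmethylated calls per cytosine, as the authors' Bismark runs wrote them.

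From RPKM, trimmed-mean scale factors were computed and log2(RPKM + 0.1) was fitted with limma 3.58.1 (R 4.3.3) with a variance trend over the 8 libraries of growing oocytes, without a replicate term, for 10518 genes of at least 0.5 RPKM in 2 libraries. Changes are on this log2(RPKM + 0.1) scale, which understates those of low genes. Tests were two-sided with Benjamini-Hochberg adjustment and a threshold of 0.05. With 2 libraries a group an exact permutation test cannot give p below 0.333, so none was used. Calls within 500 bases of gene starts (positions of at least 5 reads, at least 5 positions in every library) were tested with edgeR 4.0.16. Both tests were tested on simulated data. Libraries share letters across classes, which were not taken as pairs. P-values measure only the spread between these libraries, which may be technical.

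The steps between RPKM values gave whole reads (within 0.05) for 62 of the 68 members at their listed span and for 100.0% of filtered genes at a fitted length, with 99400000 to 198300000 reads a library; edgeR on these reads was added after seeing the data. Other alternatives were pseudocount, filter, scaling, replicate block, coverage, window and leaving out each library; counts by type, run, octamer and list without each 10–30 µm library were added after seeing the data. Sequences are from RefSeq (GRCm38.p6) and the GRCm38 genome, and all 68 symbols matched RefSeq. Members and gene lists were chosen with earlier results of these data known. Genes are named if among the 12 of highest mean, the 8 largest rises and falls called per contrast, the 5 extreme GV ratios at each end or the 5 highest PBAT starts, with list genes called in either contrast to 60–65 µm; a few others, named for a class or pair they belong to, were chosen after their values were seen.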

Additional observations from a re-analysis of the deposited data

How the results depend on the processing

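No called histone gene reversed direction under any alternative, whereas the balance of all genes turned without scale factors, from 1694 rising and 825 falling to 1088 and 1521 at 10–30 to 40–45 µm, from 1748 and 2260 to 2294 and 1612 at 40–45 to 60–65 µm and from 3410 and 3249 to 3227 and 3371 at 10–30 to 60–65 µm. Between 10–30 and 60–65 µm 35 histone genes were called, and 34 to 39 under the alternatives that kept every library (6598 to 9333 of all genes). Some of the calls were lost when a single library was left out. Hist1h3b was not tested when that library was of 10–30 µm. Between 10–30 and 40–45 µm 12 were called, and 7 with no filter, 26 with no scale factors and 5 to 29 leaving out libraries (1029 to 2892 of all genes); Hist1h1c, Hist1h2ap and Hist2h2bb were called throughout. Between 40–45 and 50–55 µm 6 were called, and 0 with no filter (549 of all genes) and 0 to 18 leaving out libraries (0 to 1636 of all genes). Between 40–45 and 60–65 µm 17 were called, and 7 to 29 leaving out libraries (1404 to 4469 of all genes), with 6 of the 17 called under every alternative; leaving out genes with largely shared sequence gave 3.23% rising and 32.3% falling. Between 50–55 and 60–65 µm 0 histone genes were called under any alternative, while a pseudocount of 1 called 8 of all genes. The labels do not say what the shared letters stand for, and deviations from class means of same-letter libraries correlated at 0.60, 0.59 and 0.67 among the 3 smaller classes but at −0.23, −0.03 and 0.11 with 60–65 µm, so pairing is not established. A replicate block gave 22, 18 and 28 histone genes in the first, second and longer step (10–30 to 40–45, 40–45 to 50–55 and 40–45 to 60–65 µm), and 1924 and 228 of all genes at 40–45 to 50–55 and 50–55 to 60–65 µm; it moved no other RNA count of calls by over 1.5 times. edgeR on recovered reads kept 12 of 12, 6 of 6, 35 of 35 and 15 of 17 calls.

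For RRBS starts, 52 windows of all genes became 24 with windows of 250 bases and 1 to 76 leaving out libraries, and histone windows stayed at 0. With a minimum of 10 reads and of 1 read, PBAT read 12.05% and 9.71% at starts, 12.2% and 9.73% in genes and 17.3% and 17.2% between them. RRBS at 40–45 µm read 1.25% and 1.49% in genes and 0.879% and 13.4% between them. At 50–55 µm a minimum of 1 read gave 2.20% at starts, 5.24% in genes and 25.4% between. At 60–65 µm starts read 0.708% and 1.38%, genes 2.15% (minimum of 1) and the sequence between 0.919% and 24.5%. The cause of these shifts was not tested. RRBS covered 11 histone windows at a minimum of 5 or 10 reads and 13 at 1 read, and PBAT and GV have no replicate.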
